A study of Mus musculus with 10 samples.

Results

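Cytosolic ribosomal protein genes encode the protein parts of the large and the small subunit of the ribosome. They were taken by symbol, as Rpl or Rps with a number and at most a short suffix, the stalk genes Rplp0, Rplp1 and Rplp2, and Rpsa, which gave 87 of 28454 gene symbols. Of these, 46 encode core proteins of the large subunit, 31 encode core proteins of the small subunit, and 10 are paralogs or copies of a core gene, 3 of them annotated as pseudogenes. Fau, which encodes a core protein fused to a ubiquitin-like protein, does not carry such a symbol and is given for comparison only.

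Most ribosomal proteins assemble with ribosomal RNA in equal molar amounts, and the messengers of ribosomal proteins are among the most abundant of a growing cell. Most of these messengers start with a cytosine followed by a run of pyrimidines, the 5′ terminal oligopyrimidine (TOP) motif, through which the kinase mTOR and the protein Larp1 set their translation. Many of the genes also carry small nucleolar RNAs (snoRNAs), guides for the modification of ribosomal RNA, inside their introns.

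The RNA came from CD31-positive endothelial cells, sorted with magnetic beads after depletion of CD11b-positive myeloid cells. The cells were taken from B16F10 tumours, which are grown from a mouse melanoma cell line, in adult mice. A source label also mentions lungs, whereas the tissue label and the titles give tumours only, and the libraries are taken here as tumour samples. The 6 Shb-inactivated libraries came from mice labelled Shbflox/flox/Cdh5-CreERt2, which carry a floxed Shb gene and a tamoxifen-inducible Cre under the promoter of the endothelial cadherin gene Cdh5. The 4 wild-type libraries came from mice labelled Cdh5-CreERt2, so both groups carry the same Cre, and cells other than endothelium keep their Shb gene in both. Shb encodes an adaptor protein downstream of tyrosine kinase receptors, and the comparison asks how its loss in endothelium changes the transcripts of tumour vessels. Values are FPKM, fragment numbers scaled to transcript length and to the mapped total of each library. The scaling by length is meant to let levels of different genes be set side by side. How well it does so for short transcripts was not tested, such as those of Rps27 (345 bases) and Rps29 (390 bases). The sequencing depth behind the values is unknown.

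Shb itself had a lowest, median and highest level of 0.37, 0.915 and 1.44 FPKM in Shb-inactivated libraries and was at 5.44, 3.27, 2.78 and 3.24 FPKM in wild-type libraries. The groups did not overlap, although the adjusted p of limma over all genes was 0.989. All 10 endothelial marker genes were above 0 in every library, with a summed level of 3349 to 4677 FPKM in Shb-inactivated libraries and of 2747 to 3795 FPKM in wild-type libraries. Markers of other cells were present as well. The 10 myeloid markers had a summed level of 27.3 to 4314 FPKM in Shb-inactivated and of 30.4 to 5534 FPKM in wild-type libraries, with Shb-inactivated replicates 3 and 4 and wild-type replicate 3 far above the rest. The 8 melanoma markers had a summed level of 14.1 to 428 FPKM in Shb-inactivated and of 93.5 to 1232 FPKM in wild-type libraries. The 5 B cell markers summed to 11.6 to 59.8 FPKM in Shb-inactivated and to 44.4 to 85.1 FPKM in wild-type libraries, and the 4 platelet markers to 85.1 to 576 FPKM in Shb-inactivated and to 154 to 997 FPKM in wild-type libraries. The 4 neutrophil markers summed to 1010.1 FPKM in wild-type replicate 3 and to at most 28.3 FPKM elsewhere. Every melanoma, myeloid, B cell and platelet marker had a mean log2 level below that of wild-type in the Shb-inactivated group. Their median log2 differences were -1.51, -1.002, -1.09 and -1.06. The tested T and NK cell, fibroblast and neutrophil markers, 4, 4 and 2 in number, also all lay below wild-type. Their medians were -0.39, -0.76 and -1.98. All 10 endothelial markers lay above wild-type with a median of 0.33, and so did all 4 pericyte markers with a median of 0.44. Of these markers 0 passed the adjusted test described further on. An unadjusted limma p under 0.05 was found for 3 of the 5 B cell and 2 of the 8 melanoma markers. It was found for 1 of the 4 platelet and 1 of the 10 endothelial markers, and for 0 of the 10 myeloid markers. Of the 4 tested T and NK cell markers 1 had such a p, and of the tested pericyte, fibroblast and neutrophil markers 0 had one. The share among all genes tested was 3.45%. The part of these cells in the results was not tested. Shb-inactivated replicates 1 and 2 and wild-type replicate 1 were low in snoRNAs. Their mean log2(FPKM + 1) over 41 snoRNAs was 1.41, 1.69 and 1.74, against 2.49 to 4.20 in the other 7 libraries. These 3 libraries also stood apart in the order of the ribosomal protein genes, described further on.

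Pyrimidine runs near the annotated transcription start are shown for the most abundant genes, for those that varied most between libraries, and for paralogs with their parent genes. Each window is 30 bases of the sense strand near the RefSeq start on GRCm38.p6, written 5′ to 3′, with the longest run of C and T that opens with C in capitals. Rps27, Rpl13a, Rpl41 and Rps24 are 4 of the 5 genes with the highest mean level. Rps15a and Rpl39 varied most of the core genes between libraries relative to their mean. Rps27l is the paralog of Rps27, and Rpl22l1 that of Rpl22. The windows lie at chr3:90213631-90213660 (minus strand) for Rps27, chr7:45128722-45128751 (minus) for Rpl13a, chr10:128549119-128549148 (minus) for Rpl41, chr14:24490698-24490727 (plus) for Rps24, chr7:118116143-118116172 (minus) for Rps15a, chrX:37085173-37085202 (minus) for Rpl39, chr9:66946054-66946083 (plus) for Rps27l, chr4:152325697-152325726 (plus) for Rpl22 and chr3:28805500-28805529 (plus) for Rpl22l1.
Rps27: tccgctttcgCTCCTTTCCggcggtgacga
Rpl13a: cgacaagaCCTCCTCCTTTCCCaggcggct
Rpl41: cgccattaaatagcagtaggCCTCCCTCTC
Rps24: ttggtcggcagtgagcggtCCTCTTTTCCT
Rps15a: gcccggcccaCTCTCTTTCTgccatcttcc
Rpl39: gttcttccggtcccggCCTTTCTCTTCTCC
Rps27l: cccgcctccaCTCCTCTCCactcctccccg
Rpl22: tcccgacagccgaCTTCgccctgggaaaag
Rpl22l1: gcaagcccgttCTCTTCCCacggctgcagc
The capitals do not all stand at the annotated start. With that base as 0, the run began at -2 in Rps27, 2 in Rpl13a and 3 in Rpl22l1. It began at -15 in Rps15a, -16 in Rpl22 and -22 in Rps27l, and downstream at 36 in Rpl39, 39 in Rps24 and 40 in Rpl41, where the run meets the end of the promoter entry. A run away from the start is a pyrimidine stretch and not by itself a TOP motif. All of these windows except that of Rpl22 hold a run of at least 8 pyrimidines. Rpl22 has a run of only 4, and its paralog Rpl22l1 has one of 8. Of the 57 core genes with a promoter entry, 43 had such a run between 25 bases before and 50 bases after the start, which is 75.4%, against 21.4% of 17429 other genes. The median longest run was 10 bases in core genes and 5 in the others. The letters CTTTCC on the sense strand, which lie inside some of these runs, were found in the same stretch in 26.3% of core genes and 3.17% of other genes. CCGGAAG, letters that ETS factors bind, were found on either strand of the whole promoter entry, 250 bases before to 50 bases after the start, in 40.4% of core genes and 11.8% of other genes. TATAAA on the sense strand was found in 8.77% of core genes and 9.002% of other genes. These matches describe the letters of the reference only, and no binding was measured.

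Rps27 had the highest level of the core genes in all 10 libraries. Rps27, which encodes a small-subunit protein with a zinc finger, had a lowest, median and highest level of 1608, 2329.6 and 3006 FPKM in Shb-inactivated libraries and was at 1802, 2737, 2556 and 3059 FPKM in wild-type libraries. Its mean of 2409.5 ± 480.2 FPKM (SD, n = 10) made it the 7th of 17403 protein-coding symbols. Rps29 followed with a mean of 1717.5 ± 394.5 FPKM, Rpl13a with 1562 ± 233 FPKM, Rpl41 with 1490.2 ± 293.8 FPKM and Rps24 with 1441 ± 281 FPKM (SD, n = 10 each). Rpl13a is known in human monocytes to leave the ribosome after interferon-gamma, Rpl41 encodes the shortest ribosomal protein, and Rps24 is mutated in some patients with Diamond-Blackfan anaemia. These 5 genes together held 13.5% of the summed level of the 77 core genes.

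Rps16 stood near the low end of the order. It had a lowest, median and highest level of 203, 274 and 434 FPKM in Shb-inactivated libraries and was at 208, 238, 365 and 310.3 FPKM in wild-type libraries. Its mean was 285 ± 77.9 FPKM (SD, n = 10), and it was the lowest core gene in 4 of the 10 libraries. The 25th percentile of the core means was 578 FPKM, the median 764 FPKM and the 75th percentile 995 FPKM. All 77 core genes were among the 242 highest protein-coding symbols, and 56 were among the 100 highest.

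Neighbours in this order mostly differed by less than their spread between libraries. Of 76 pairs of neighbours in the order of means, 73 differed by less than the SD of their difference over the 10 libraries. Neighbours of a sorted list lie close by construction, and this SD is that of single libraries, not the error of a mean. Over the whole order, rank correlations between libraries were 0.735 to 0.991, as given further on. The exceptions included Rps27 above Rps29 and Rps3 above Rpl29. Rps27 above Rps29 was also the only neighbouring pair in the same order in every library. The coefficient of variation over the 10 libraries had a median of 13.1% and ran between 7.66% for Rpl11, which binds 5S ribosomal RNA and the p53 regulator Mdm2, and 34.9% for Rpl39, a small protein of the peptide exit tunnel. Rps15a had 29.1% and Rps16 27.3%.

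**Figure D1:**
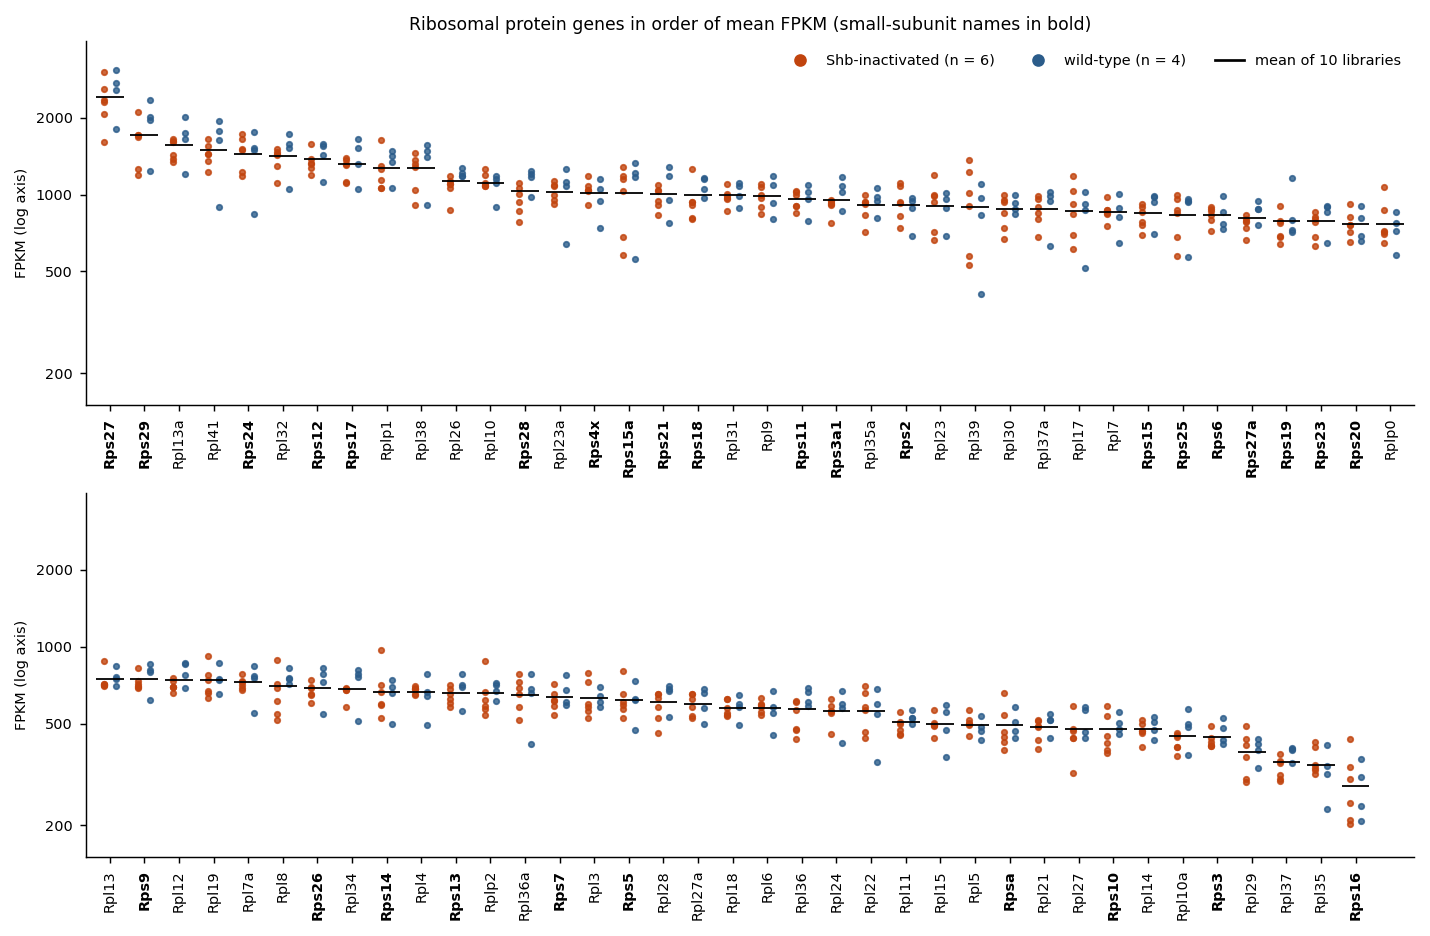
FPKM on a log axis of 75 of the 77 core ribosomal protein genes in order of mean level, with a point per library (Shb-inactivated, n = 6, left of wild-type, n = 4) and a line at the mean of 10 libraries. Rps27 stands above all others with a mean of 2409.5 FPKM, the groups overlap for every gene shown, and Rps15a and Rpl39 spread over a wide range.

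Genes of the small subunit had somewhat higher levels than genes of the large subunit. The 31 small-subunit genes had a median of 834 FPKM and a mean of 929 FPKM, and the 46 large-subunit genes a median of 693 FPKM and a mean of 759 FPKM. Above 1000 FPKM were 10 small-subunit genes, or 32.3%, and 8 large-subunit genes, or 17.4%. Across the 77 core genes, mean level and coding length had a rank correlation of -0.30, and mean level and the GC content of the coding sequence one of -0.27. Both are descriptions over genes measured in the same libraries. The median coding length was 456 bases in the small and 478.5 bases in the large subunit.

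The core genes lie on 19 chromosomes, with 14 of the 77 on chromosome 7, 7 on chromosome 11 and 4 on the X chromosome. The 4 on the X chromosome are Rpl10, Rpl36a, Rpl39 and Rps4x. Of the core genes, 30 contain a total of 58 annotated snoRNA genes. Rpl13a holds Snord32a, Snord33, Snord34 and Snord35a. The mean levels of the 30 hosts had a median of 745 FPKM and those of the other 47 core genes a median of 786 FPKM.

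The share of messenger RNA taken by the ribosomal protein genes overlapped between the groups. The 77 core genes held 13.3, 14.3, 13.4, 13.9, 14.1 and 14.98% of the FPKM of protein-coding genes in Shb-inactivated replicates 1 to 6. They held 13.3, 15.9, 13.7 and 16.8% in wild-type replicates 1 to 4. The groups overlapped, with wild-type replicates 2 and 4 above every other library. The mean was 14.0 ± 0.632% (SD, n = 6) in Shb-inactivated libraries and 14.9 ± 1.69% (SD, n = 4) in wild-type libraries. The difference of -0.93 percentage points is smaller in size than the SD of the wild-type group and larger than that of the Shb-inactivated group. Over nuclear protein-coding genes alone the means were 14.4% in Shb-inactivated and 15.6% in wild-type libraries, a difference of -1.19 percentage points. Mitochondrially encoded messengers reached 43670.3 FPKM in wild-type replicate 1, against 8162 to 16315 FPKM elsewhere. Over all symbols, RNAs that code for no protein included, the means were 11.8% in Shb-inactivated and 11.9% in wild-type libraries, a difference of -0.13 percentage points. With wild-type replicate 4 left out, the difference over protein-coding genes was -0.32 percentage points, and with wild-type replicate 2 left out it was -0.59. With wild-type replicate 1 left out it was -1.48. In such sorted bulk samples, fewer cells of a type and less RNA per cell cannot be told apart.

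The summed FPKM of the core genes was 55925 to 65734 in the Shb-inactivated group and 52804 to 74614 in the wild-type group. Wild-type replicate 4 was the highest, and all 77 core genes lay above their own mean there. Wild-type replicate 2 followed with 72 genes above their mean. Wild-type replicate 1 and Shb-inactivated replicate 1 were the lowest, with 12 and 20 core genes above their mean, and the other 6 libraries had 33 to 44. The libraries rich in myeloid transcripts were among these 6.

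The ratio of large-subunit to small-subunit transcripts moved within narrow bounds. Its log2 was 0.35, 0.31, 0.28, 0.28, 0.29 and 0.28 in Shb-inactivated replicates 1 to 6, and 0.21, 0.27, 0.25 and 0.27 in wild-type replicates 1 to 4. Every Shb-inactivated library lay above every wild-type library, with the lowest Shb-inactivated value at 0.275 and the highest wild-type value at 0.274. The means were 0.296 ± 0.0287 (SD, n = 6) in Shb-inactivated and 0.253 ± 0.0272 (SD, n = 4) in wild-type libraries. The outer values belonged to the 3 libraries low in snoRNAs. Without them the means were 0.280 ± 0.00506 (SD, n = 4) in Shb-inactivated and 0.265 ± 0.0122 (SD, n = 3) in wild-type libraries, a difference of 0.01 in place of 0.04. With medians of single genes in place of sums the difference was 0.0074. No test was made of these sums, and the part of the snoRNA-low libraries in the difference was not tested.

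**Figure D2:**
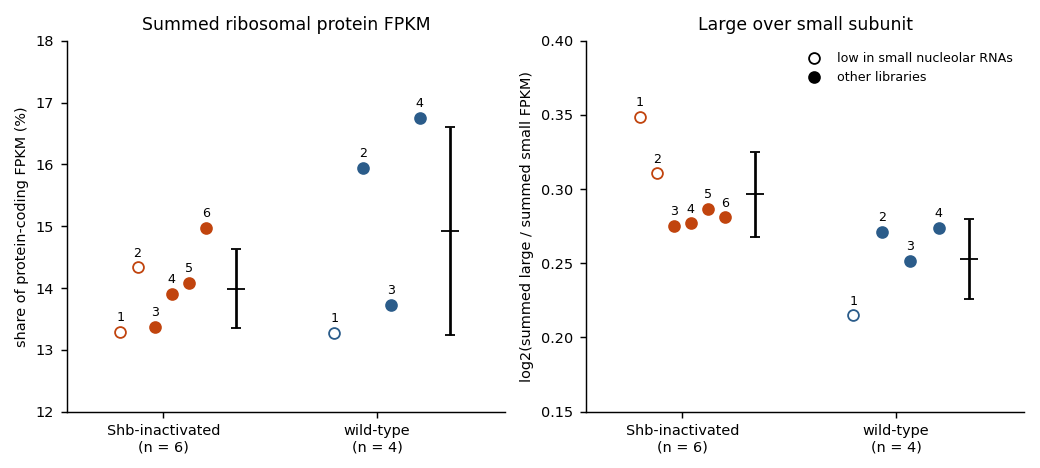
Share of the 77 core genes in protein-coding FPKM in percent (left) and log2 of the summed large-subunit over the summed small-subunit FPKM (right), per library, with the replicate number at each point and the mean with SD beside each group. Open points are the 3 libraries low in snoRNAs; wild-type replicates 2 and 4 have the highest shares, 15.9 and 16.8%, and the groups touch in the ratio between 0.275 and 0.274.

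Between Shb-inactivated and wild-type libraries, no ribosomal protein gene passed the test. Of the 87 genes, 84 had at least 1 FPKM in at least 4 libraries and were tested together with all other such genes by limma on log2(FPKM + 1), two-sided, with Benjamini-Hochberg adjustment over 12805 genes. An adjusted p under 0.05 was called, and the share called among all genes was 0%, with a lowest adjusted p of 0.989. At an unadjusted limma p under 0.05, 1 of the 84 passed, against 3.45% of all genes. By the exact permutation test over all 210 splits, unadjusted, 4 of the 84 or 4.76% had a p under 0.05, near the 3.87% of all genes. The groups overlapped for all 84 genes, while they did not for 0.718% of all genes, with the Shb-inactivated libraries lower in 0.18% and higher in 0.539%. Each library is taken as a replicate, and the p-values cover only the spread among them.

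More ribosomal protein genes lay below 0 than above. The log2 fold change, Shb-inactivated minus wild-type, was below 0 for 58 of the 84 genes, against 48.8% of all genes, and above 0 for 26. The median was -0.06, against 0.01 for all 12805 genes. It was -0.04 over the 46 large-subunit genes, of which 30 were below 0, and -0.09 over the 31 small-subunit genes, of which 24 were below 0. After quantile normalization, 48 of the 84 genes were below 0 and 36 above, while 7489 of all 12805 genes were above 0. The median was then -0.025 over the 84 genes and 0.041 over all genes. Without this normalization, the range of the core genes ran between -0.28 for Rpl36 and 0.18 for Rpl39.

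The count rested on single libraries. The median was 0.0007 with wild-type replicate 4 left out, and 42 of 83 tested genes were then above 0. It was -0.13 with wild-type replicate 1 left out, and 5 of 83 were then above 0. Without the 3 libraries low in snoRNAs it was -0.14, with 12 of 82 above 0. With the snoRNA level as a covariate it was 0.01, with 48 above 0, and with library weights in limma it was -0.16, with 0 above 0. The sign of the median therefore changed with the libraries and the setting used.

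**Figure D3:**
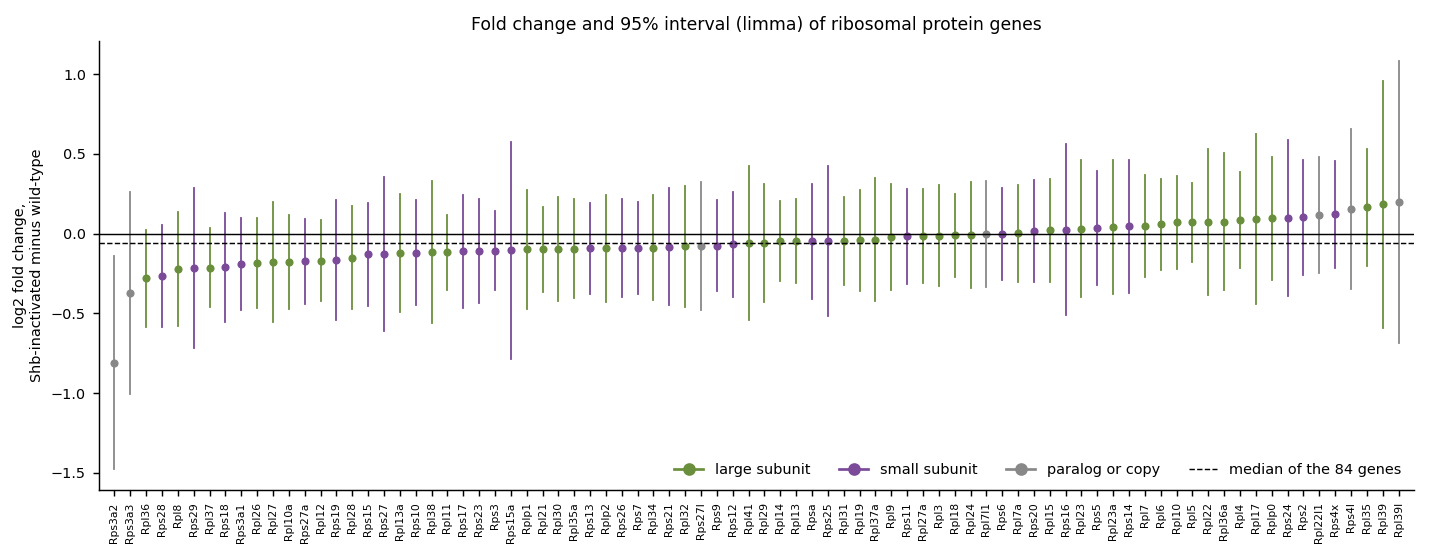
Log2 fold change, Shb-inactivated minus wild-type, with the 95% interval of limma for 82 of the 84 ribosomal protein genes tested, in order of size and coloured by subunit, with copies in grey. All intervals shown but that of the copy Rps3a2 include 0, and the dashed line marks the median of -0.06 over the 84 genes.

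Among the genes with the smallest p below 0, Rpl36 and Rpl37 encode large-subunit proteins. Rpl36 had a lowest, median and highest level of 435, 522 and 614 FPKM in Shb-inactivated libraries and was at 606, 667, 589 and 692 FPKM in wild-type libraries. The groups overlapped, and Shb-inactivated replicates 2 and 4 reached into the wild-type range. Its log2 fold change was -0.28 (SE 0.14), the exact permutation p was 0.0476 before adjustment, and limma gave an adjusted p of 0.989. Rpl37 had a lowest, median and highest level of 298, 332 and 380.4 FPKM in Shb-inactivated libraries and was at 350.4, 402, 395 and 398 FPKM in wild-type libraries. The groups overlapped, as Shb-inactivated replicates 4 and 6, at 380.4 and 358 FPKM, lay above wild-type replicate 1. The log2 fold change of Rpl37 was -0.21 (SE 0.11), the exact permutation p was 0.0333 before adjustment, and limma gave an adjusted p of 0.989.

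Rpl26 and Rps28 lay in the same direction. Rpl26 was chosen after its values were seen, for the smallest exact p of the 84 genes. Rpl26, a protein at the rim of the exit tunnel that also binds p53 messenger RNA in human cells, had a lowest, median and highest level of 873, 1099 and 1182 FPKM in Shb-inactivated libraries and was at 1177, 1219, 1186 and 1275 FPKM in wild-type libraries. Only Shb-inactivated replicate 4 reached past the lowest wild-type library. Its log2 fold change was -0.18 (SE 0.13), the exact permutation p was 0.0238 before adjustment, and limma gave an adjusted p of 0.989. Rps28 averaged 958 ± 124 FPKM (SD, n = 6) in Shb-inactivated and 1147 ± 118 FPKM (SD, n = 4) in wild-type libraries, a log2 fold change of -0.26 (SE 0.15). Rpl12 averaged 705 ± 33.9 FPKM (SD, n = 6) in Shb-inactivated and 795 ± 81.2 FPKM (SD, n = 4) in wild-type libraries. Rps28 and Rpl12 both had an adjusted limma p of 0.989.

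Genes with the smallest p above 0 had larger p-values throughout. Rpl35, a protein at the exit tunnel where nascent chains meet the signal recognition particle, averaged 359 ± 43.6 FPKM (SD, n = 6) in Shb-inactivated and 325 ± 74.4 FPKM (SD, n = 4) in wild-type libraries. Its log2 fold change was 0.16 (SE 0.17), and limma gave an adjusted p of 0.989. Rps4x averaged 1047 ± 89.8 FPKM in Shb-inactivated and 972 ± 178 FPKM in wild-type libraries, and Rpl5 averaged 504 ± 38.5 FPKM in Shb-inactivated and 480.0 ± 43.9 FPKM in wild-type libraries. The fold changes of Rpl35, Rps4x and Rpl5 were below 0 with library weights in limma.

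The roles of the proteins gave no list with a gene past the threshold. Of the P stalk, which recruits the translation factors that hydrolyse GTP, Rplp0 averaged 786 ± 157 FPKM in Shb-inactivated and 731 ± 114 FPKM in wild-type libraries. Rplp1 averaged 1242 ± 216 FPKM in Shb-inactivated and 1325 ± 183 FPKM in wild-type libraries, and Rplp2 averaged 645 ± 124 FPKM in Shb-inactivated and 679 ± 47.1 FPKM in wild-type libraries (SD, n = 6 and n = 4). Rplp1 had the highest level of the 3 in both groups, while its protein and that of Rplp2 form dimers on Rplp0 in the ribosome. Rpsa, the laminin receptor precursor, averaged 488 ± 98.2 FPKM in Shb-inactivated and 499.7 ± 61.7 FPKM in wild-type libraries. Rps6, the substrate of S6 kinase, averaged 831 ± 65.1 FPKM in Shb-inactivated and 835 ± 111 FPKM in wild-type libraries. Of 8 proteins that line or ring the exit tunnel, 5 lay above 0 and 3 below. Of 10 selected genes mutated in Diamond-Blackfan anaemia, 2 lay above 0 and 8 below. Among all 77 core genes, 54 or 70.1% lay below 0. The fusion gene Fau had a log2 fold change of -0.15 and a mean level of 473 FPKM, within the range of the core genes.

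All 10 paralogs or copies had a lower mean level than every core gene. Rpl22l1 averaged 222 ± 35.6 FPKM (SD, n = 6) in Shb-inactivated and 206 ± 44.1 FPKM (SD, n = 4) in wild-type libraries. Its parent Rpl22 averaged 568 ± 104 FPKM in Shb-inactivated and 547 ± 140 FPKM in wild-type libraries. Rpl22 is known in mice to repress Rpl22l1 through its messenger. Per library, Rpl22l1 stood at 34.1 to 43.4% of Rpl22 in Shb-inactivated libraries and at 46.6, 37.2, 31.9 and 38.0% in wild-type libraries, so the groups overlapped. Rps27l, a target of p53, averaged 217 ± 40.3 FPKM in Shb-inactivated and 230.3 ± 47.0 FPKM in wild-type libraries. It stood at 7.68 to 12.1% of Rps27 in Shb-inactivated libraries and at 9.06, 9.94, 9.27 and 8.14% in wild-type libraries. Their coding sequences share 76.1% of 255 aligned bases, and those of Rpl22l1 and Rpl22 share 73.4% of 354. Rpl7l1 had a mean of 31.8 FPKM and 3.73% of Rpl7.

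The other copies were scarce. Rpl39l and Rpl10l, which serve in mouse testis, had means of 1.30 and 0.001 FPKM, and Rpl3l, a gene of striated muscle, had one of 0.569 FPKM. Rpl10l was listed at 0 in 9 libraries. Rps4l, a pseudogene whose sequence matches Rps4x over 80.1% of aligned bases, had a mean of 23.1 FPKM or 2.27% of Rps4x. Rps3a2 and Rps3a3 are processed pseudogenes that match the coding sequence of Rps3a1 over 99.5 and 98.9% of aligned bases, and they had means of 3.65 and 1.09 FPKM, or 0.382 and 0.114% of Rps3a1. Rps3a2 had a lowest, median and highest level of 1.26, 2.27 and 6.08 FPKM in Shb-inactivated libraries and was at 4.03, 6.88, 4.98 and 4.44 FPKM in wild-type libraries. Only Shb-inactivated replicate 4 lay within the wild-type range. Its log2 fold change was -0.81 (SE 0.30), the exact permutation p was 0.0429 before adjustment, and limma gave an adjusted p of 0.989. How the authors shared reads between such near-identical copies is not given in the sources used here, so values of Rps3a2, Rps3a3 and Rps3a1 are uncertain. Of 171 symbols named as ribosomal protein pseudogenes outside the rule, only 27 reached the level needed for the test. Of these 27, 25 lay below 0, against 48.8% of all genes tested, with a median of -0.41. An unadjusted limma p under 0.05 was found for 2 of them, and 0 were called. Most were scarce, as the 2nd highest, Rpl36a-ps2, averaged 15.2 FPKM in Shb-inactivated and 25.2 FPKM in wild-type libraries. The same uncertainty about shared reads holds for them.

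**Figure D4:**
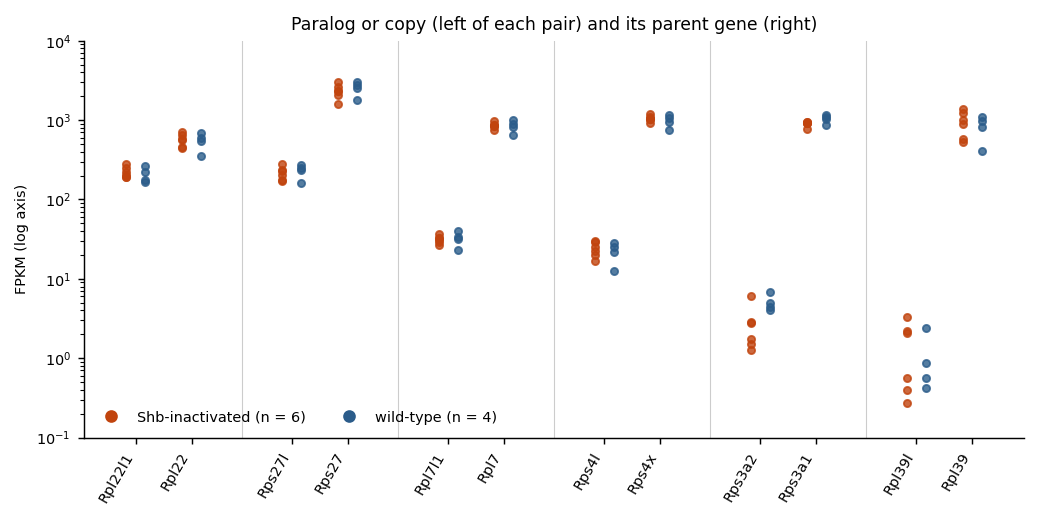
FPKM on a log axis of 6 paralogs or copies, each left of its parent gene, with a point per library (Shb-inactivated, n = 6, left of wild-type, n = 4). Rpl22l1 and Rps27l lie at 216 and 222 FPKM on average, Rpl7l1 and Rps4l at 31.8 and 23.1 FPKM, and the groups overlap in every gene.

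The order of the core genes differed between the 3 libraries low in snoRNAs and the other 7. Rank correlations of the 77 core levels between libraries were 0.879 to 0.973 within the 3, 0.920 to 0.991 within the 7, and 0.735 to 0.881 between them. Of the 77 genes, 27 or 35.1% were lower in all 3 than in all 7, against 8.66% of all genes tested, and 0 were higher in all 3, against 10.8% of all genes. The median difference in mean log2(FPKM + 1) was -0.16 over the core genes and 0.02 over all genes tested. Since the 3 libraries hold 2 of 6 Shb-inactivated and 1 of 4 wild-type libraries, they do not follow the groups.

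Rpl39 and Rps15a differed most. Rpl39 was at 575, 529 and 407 FPKM in Shb-inactivated replicates 1 and 2 and wild-type replicate 1, against 828 to 1360.4 FPKM in the other 7, a log2 difference of -1.06. Rps15a was at 577, 682 and 559.9 FPKM in these 3 libraries, against 1032 to 1333 FPKM in the other 7, a log2 difference of -0.98. Rpl17 followed with -0.67, Rps29 with -0.64 and Rps25 with -0.61. At the other end Rpl8 was higher by 0.31 on the log2 scale and Rps19, the gene most often mutated in Diamond-Blackfan anaemia, by 0.29, each with overlapping libraries. Host genes of snoRNAs had a median difference of -0.14 and the other core genes one of -0.18.

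This difference varied with the composition of the genes. Over the 77 core genes its rank correlation was 0.583 with the GC content of the coding sequence and 0.483 with coding length, while GC and length had one of 0.072 with each other. Rpl39 has the lowest coding GC, 44.2%, and a coding length of 156 bases. In single libraries, the rank correlation of GC content with a gene's deviation from its mean was 0.57, 0.58, -0.65, -0.05, -0.70 and -0.60 in Shb-inactivated replicates 1 to 6, and 0.32, -0.08, 0.10 and -0.25 in wild-type replicates 1 to 4. It was thus above 0 in all 3 libraries low in snoRNAs, and at -0.60 or lower in Shb-inactivated replicates 3, 5 and 6. With the GC content of the whole transcript, the core genes had rank correlations of 0.32, 0.40, -0.51, -0.04, -0.54 and -0.44 in Shb-inactivated replicates 1 to 6 and of 0.29, 0.08, 0.14 and -0.11 in wild-type replicates 1 to 4. Protein-coding genes outside the ribosome, 10972 in number, had rank correlations with transcript GC of 0.43, 0.57, -0.44, -0.06, -0.41 and -0.26 in Shb-inactivated replicates 1 to 6 and of 0.25, -0.17, 0.01 and -0.17 in wild-type replicates 1 to 4. The fold change between the groups had a rank correlation of -0.27 with coding GC over the core genes. All these are descriptions over genes of shared libraries.

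**Figure D5:**
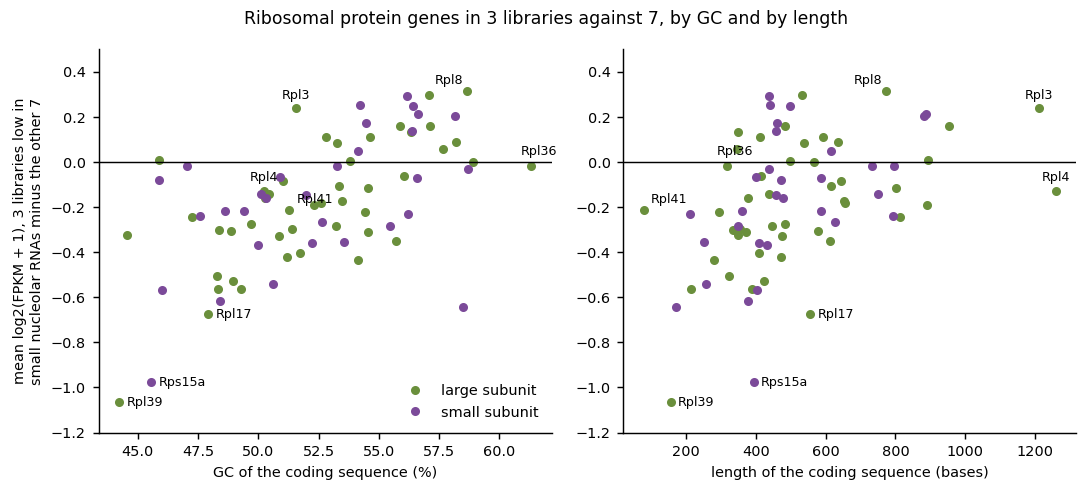
Difference in mean log2(FPKM + 1) between the 3 libraries low in snoRNAs and the other 7, for each of the 77 core genes, against the GC content in percent (left) and the length in bases (right) of the coding sequence. The lowest points are Rpl39 and Rps15a, both of low GC, at -1.06 and -0.98, and Rpl8 lies at 0.31. Not all genes of low GC lie low, as Rpl5, with a coding GC of 45.9%, lies at 0.008.

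Other genes of translation and ribosome assembly did not differ between the groups by this test either. In each of the 4 lists that follow, 0 genes passed, as in all 12805 genes. Of 20 tested translation factors and other TOP messengers, 10 lay above 0 and 10 below, with a median log2 fold change of 0.005. Eef1a1, the elongation factor that brings in aminoacyl-tRNA, averaged 4757 ± 446 FPKM (SD, n = 6) in Shb-inactivated and 4394 ± 692 FPKM (SD, n = 4) in wild-type libraries. Vim, which encodes vimentin and carries a TOP motif, averaged 2447 ± 77.3 FPKM in Shb-inactivated and 2007 ± 386 FPKM in wild-type libraries. Its groups did not overlap, and limma gave an adjusted p of 0.989. The exact permutation p before adjustment was 0.00476, which no split of 10 libraries can go below. Of 37 ribosome assembly genes, 12 lay above 0 and 25 below (median -0.09), with Polr1d at 87.8 and Nop58 at 85.2 FPKM in Shb-inactivated libraries and at 88.5 and 89.8 FPKM in wild-type libraries. Of 15 genes of mTOR and TOP control, 7 lay above 0 and 8 below (median -0.02), with Eif4e at 100.4 FPKM in Shb-inactivated and 93.5 FPKM in wild-type libraries and Eif4ebp1 at 70.6 FPKM in Shb-inactivated and 66.7 FPKM in wild-type libraries. Of 76 mitochondrial ribosomal protein genes, 36 lay above 0 and 40 below (median -0.01), with Mrpl33 at 151 FPKM in both groups and Mrpl52 at 124 FPKM in Shb-inactivated and 129 FPKM in wild-type libraries. In the 3 libraries low in snoRNAs, 19 of the 76 mitochondrial ribosomal protein genes, or 25%, lay below all 7 others, against 8.66% of all genes tested and 35.1% of the cytosolic core genes.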

How the data were processed

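The authors deposited FPKM per gene symbol for 10 libraries of stranded total RNA depleted of ribosomal RNA. TopHat2 2.1.1 and Cufflinks 2.2.1 were used with the GRCm38 build, per the submitters' processing notes. Not given in the sources used here are the annotation, the use of strand and the treatment of reads that map to several places. FPKM holds no read totals, so depth and counting error are unknown.

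Genes that reached 1 FPKM in 4 or more libraries were tested with limma 3.58.1 in R 4.3.3 on log2(FPKM + 1) with a mean-variance trend, a step also tested on simulated data. Single genes were also given an exact permutation test, two-sided. Each fold change is the Shb-inactivated mean log2 value minus that of wild-type, and the pseudocount makes it understate changes of low genes. Gene types, positions and coding sequences came from GENCODE vM21, and start windows from RefSeq (GRCm38.p6). Sums, ratios and lists were described without a test. The members and all lists were chosen with earlier results of these data known. Genes were named by rule: the 5 highest and lowest, the 5 smallest p per direction, stalk genes, Rpsa, paralog pairs and the 2 highest of each other list. Roles, composition, the order of levels and Rpl26, with the genes given there, were added after values were seen. A few genes are not reported here. Plots used matplotlib 3.10.9.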

Additional observations from a re-analysis of the deposited data

Results flagged for a closer look

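In 7 of 100 groups of libraries, 1 library of a ribosomal protein gene stood apart from the others of its group by the gap to its nearest neighbour. The nominal chance rate of about 1 in 20 groups holds for independent groups. These groups share the same 10 libraries, so the count cannot be weighed against that rate. Rpl37 was at 350.45 FPKM in wild-type replicate 1, against 395 to 402 FPKM in the other wild-type libraries. Rplp2 was at 882.28 FPKM in Shb-inactivated replicate 2, against 540.2 to 668 FPKM in the other Shb-inactivated libraries. Rps3a1 was at 771.92 FPKM in Shb-inactivated replicate 1, against 910.0 to 955 FPKM. Both replicates and wild-type replicate 1 are the libraries low in snoRNAs. Among scarce copies, Rps3a2 was at 6.08 FPKM in Shb-inactivated replicate 4, against 1.26 to 2.86 FPKM, and Rpl3l was at 2.15 FPKM in Shb-inactivated replicate 5, against 0.2 to 0.74 FPKM. Rps12l2 was at 0.1 FPKM in wild-type replicate 2 and Rpl10l at 0.01 FPKM in wild-type replicate 3, with the other wild-type libraries at 0. Any value above 0 would have stood apart in these 2 groups, so they are no sign of an outlying library.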

How the results depend on the processing

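No gene passed the threshold in any of the 23 alternatives run, and the median of the ribosomal protein genes (-0.06) moved in each by less than 0.136, the SD between libraries of their mean log2 level. Leaving out each library in turn gave medians of -0.13447 to 0.00069405. The replicate block gave -0.070467 and no call. Same-numbered libraries deviated together in 2 pairs, replicates 1 and 3 (r = 0.4363 and 0.7072), and apart in the other 2 (-0.3185 and -0.5460). Both replicates 1 are low in snoRNAs, and both replicates 3 are rich in myeloid transcripts. The Shb-inactivated library most alike was replicate 2, 5, 4 and 5 for wild-type replicates 1 to 4, so it never had the same number. Whether same-numbered libraries were handled together was not tested. The share difference ran from -1.4813 to -0.32212 percentage points as single libraries were left out and was -0.12857 over all symbols. The difference in the large over small ratio (0.04) was 0.01443 with the 3 snoRNA-low libraries left out and 0.0074079 with medians. It was 0.031045 to 0.050722 with single libraries left out. Of 458 fold changes of 20 named genes, 433 kept their sign and side of the threshold, and 25, none of them called, changed sign. Quantile normalization gave Rpl41 0.015798 and Rplp1 0.0085087. Library weights gave Rps24 -0.095571, Rpl35 -0.043887, Rps4x -0.03234, Rpl22l1 -0.076569, Rps4l -0.066382, Rpl5 -0.027253 and Rplp0 -0.073652. The replicate block gave Rpsa 0.053058. The snoRNA level as a covariate gave Rps27 0.055674, Rpl13a 6.4899e-05 and Rpl41 0.034547. Without the myeloid-rich libraries Rpl41 was at 0.036074. With the 3 snoRNA-low libraries left out, Rps4l was at -0.18681, Rpl5 at -0.018859 and Rplp0 at -0.16797. With single libraries left out, Rps24 ran from -0.13021 to 0.22365, Rps4x from -0.0023792 to 0.21147, Rps4l from -0.077411 to 0.28795, Rplp0 from -0.0099631 to 0.17499, Rpl41 from -0.30809 to 0.062865 and Rpsa from -0.13897 to 0.028355. The cause of these changes was not tested.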

Other observations

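Some genes that resemble ribosomal protein genes but fall outside the symbol rule were measured as well. Rpl36al, an intronless relative of Rpl36a, had a mean of 254 FPKM. Rps27rt and Rpl37rt, retrogene copies of Rps27 and Rpl37, had means of 9.63 and 2.53 FPKM. Rps27rt was at 9.31, 30.7, 0.8, 6.8, 0.75 and 3.15 FPKM in Shb-inactivated replicates 1 to 6. In wild-type replicates 1 to 4 it was at 23.8, 9.78, 7.31 and 3.89 FPKM, and its groups overlapped. It was highest in Shb-inactivated replicate 2 and wild-type replicate 1, both low in snoRNAs. Shb-inactivated replicate 1, which is low in snoRNAs too, lay at 9.31 FPKM, below the 9.78 FPKM of wild-type replicate 2. Rps12-ps3, a gene named as a pseudogene of Rps12, averaged 322 ± 111 FPKM (SD, n = 6) in Shb-inactivated and 325 ± 129 FPKM (SD, n = 4) in wild-type libraries, above the paralogs Rps27l and Rpl22l1. How the authors' counting shared reads between such copies and their parent genes is not given in the sources used here.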
